A study of Homo sapiens with 12 samples.

Results

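In a pair of melanoma cell lines with acquired resistance to combined BRAF and MEK inhibition, 116 features were higher in the resistant cells of 1 line and lower in those of the other. They were taken from a table of 78932 rows, of which 10718 reached a mean of at least 10 CPM (the count divided by the library's total, times 1000000) in at least 1 group of libraries. A row was kept when, in 1 line, every resistant library held at least 2 times the CPM of the highest control and, in the other, every resistant library held at most 1/2 of the lowest control. In 36 features the resistant WM9 libraries were high and the resistant Hs294T libraries low, and in 80 the reverse held. The features were thus chosen by their CPM in these same 12 libraries, and these levels are given as a description, without a test. WM9 and Hs294T are established human lines from metastatic melanoma, labelled with the same genotype, a valine-to-glutamate substitution in BRAF. The resistant cells of each had been adapted to rising vemurafenib and cobimetinib, up to 0.4 µM of both, and the controls to rising amounts of the solvent, DMSO. There were 4 groups of 3 libraries, labelled as biological replicates, a control and a resistant group for each line. The sources used here do not say whether the resistant cells are clones, nor whether the drugs were present at harvest, so drug exposure and adaptation cannot be told apart.

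BRAF and MEK are successive kinases of the MAPK cascade, which carries growth signals from receptors at the cell surface to transcription factors in the nucleus. A mutant BRAF that is always active keeps this cascade on in many melanomas. Vemurafenib blocks the mutant BRAF, cobimetinib blocks MEK, and tumours treated with both commonly become resistant by more than 1 route, among them reactivation of the cascade and a change of the melanocytic cell state. Rows of the table carry no gene names, and none was inferred from the order of the rows, so features carry their row number (row28711 is the row of that number below the header). Functions, lengths, sequences and gene groups are accordingly not given, markers of melanoma or other cell types could not be read, and values are compared between groups for 1 feature at a time.

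The libraries held between 16817256 and 22561406 counts, so that 3 counts stood for 0.133 to 0.178 CPM in a library. For the gaps between libraries, a library below 3 counts was set to 3 counts. For ratios, a group at 0 was set against 3 counts over the group. Across 18615 rows the control groups of the lines were closer to each other (median Pearson r 0.977 of log2 CPM) than to the resistant group of their own line (0.818 in WM9, 0.849 in Hs294T). The resistant groups were likewise closer to each other (0.883) than to the control group of their own line. Without gene names, line identity could not be checked in the data. WM9 control 2 and 3 and Hs294T resistant 2 and 3 were near-identical pairs, with a mean chi-square per row of 3.13 and 3.32 against 37.7 to 153.9 for the other pairs within a group. Both pairs still differed by more than counting noise, which alone gives about 1, and were kept as separate samples. The SD in those groups may be smaller than that between separate cultures. In bulk RNA, fewer cells of a kind and less RNA per cell cannot be told apart.

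Opposite movement was the exception under this rule. Of the 10718 rows, 1.08% met it (0.336% high in resistant WM9 and 0.746% high in resistant Hs294T), while 694 rows were at least 2-fold higher and 542 at least 2-fold lower in both resistant groups under the same terms. All 116 features passed the low-count filter of edgeR, and its quasi-likelihood test called 110 of them in opposite directions at an adjusted p below 0.05, against 4.68% of all 18615 rows tested. These were 34 of the 36 (2.49% of all rows were called that way) and 76 of the 80 (2.19%). In the test of the difference of effects, edgeR called 112, against 33.3% of all rows. Nothing is read from these counts, which the choice of the features fixes. The numbers in each direction depended on the scaling of the libraries, which moved all rows together: over the rows tested, the median log2 ratio of resistant to control was -0.46 in WM9 and -0.13 in Hs294T by CPM, and -0.07 and -0.06 with counts scaled by trimmed mean of M-values (TMM). With TMM scaling, 58 features were high in resistant WM9 and 70 in resistant Hs294T. Upper-quartile scaling gave 52 and 71, and DESeq2 size factors 57 and 68. Of the 116 features, 94 met the rule under every one of these 4 scalings, 34 of the 36 and 60 of the 80.

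**Figure D1:**
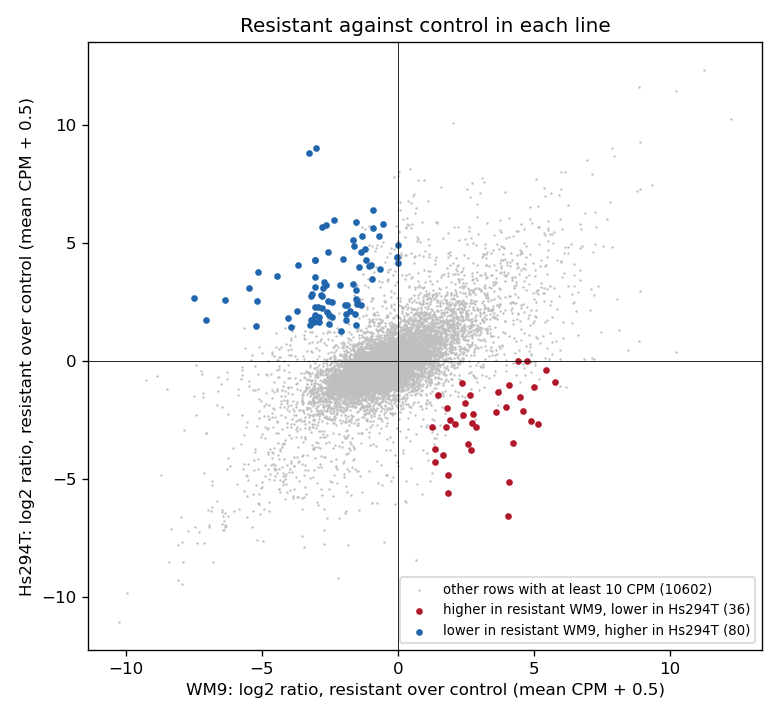
Log2 ratio of resistant over control mean CPM, with 0.5 CPM added, in WM9 (x axis) and Hs294T (y axis) for each of the 10718 rows with at least 10 CPM in a group. The 36 features high in resistant WM9 and low in resistant Hs294T lie at the lower right, the 80 of the reverse kind at the upper left, and the other rows are grey; 5 features on or almost on an axis were absent or almost absent from 1 line.

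The typical feature lay at a low to moderate level in both control groups and was pulled apart in the resistant groups. Among the 36 features high in resistant WM9, the median of the group means was 2.86 CPM in WM9 control, 30.9 CPM in WM9 resistant, 4.05 CPM in Hs294T control and 0.322 CPM in Hs294T resistant libraries. Among the 80 of the reverse kind, these medians were 6.87, 0.412, 3.95 and 42.3 CPM in the same order of groups. In 90 of the 116 features all 6 control libraries lay below every library of the higher resistant group and above every library of the lower one. The rule already sets each resistant group apart from the controls of its own line. It thus fixes much of this count, from which nothing is read. The highest group mean was that of the higher resistant group in 113 features. The 3 others peaked in the control group of the line in which resistant levels were low, and in these the control means stood 5.75, 16.5 and 69.1 times apart (row61175, row39072 and row75161, chosen after their values were seen).

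**Figure D2:**
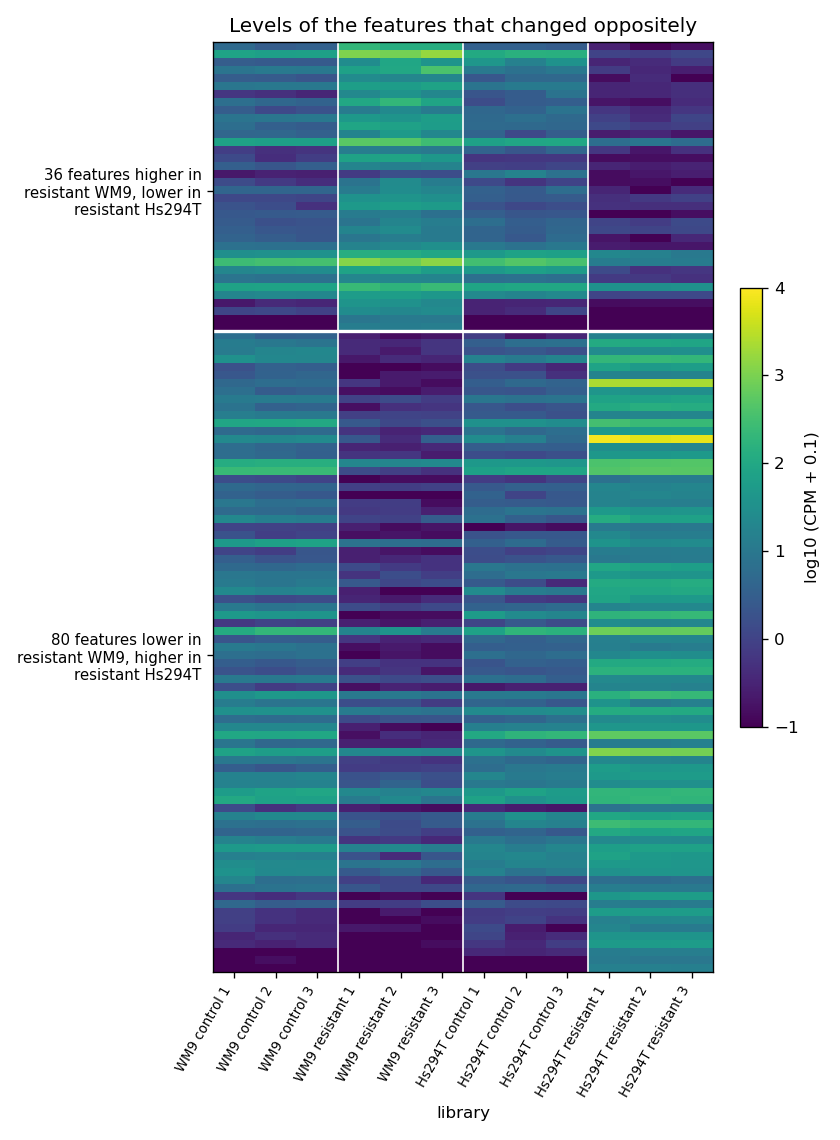
Level of the 116 features (rows) in the 12 libraries (columns), as log10 of CPM with 0.1 CPM added, ordered in each block by the gap between resistant and control libraries in the line where that gap was smaller. The 36 features of the upper block are bright in the WM9 resistant libraries and dark in the Hs294T resistant libraries, and the 80 of the lower block show the reverse.

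The support for the lower arm differed between features. In 42 features the controls of the line with low resistant levels held a mean of 10 CPM or more, in 54 they held 1 to 10 CPM, and in 15 they held less than 1 CPM but more than 3 counts. In the remaining 5 there was no level to fall from. The features row45725 and row45932 had 0 counts in all 6 Hs294T libraries, and row17904 and row39523 had 0 counts in all 6 WM9 libraries. The feature row32372 had 1 count in all 6 WM9 libraries together. For these the condition was met as 0 against 0 in the lower arm or nearly so. In the line with high resistant levels, row17904 also had 16 counts in the controls, while the others had none there. Row39523 held 14.7, 14.7 and 14.2 CPM in the Hs294T resistant libraries and 0 in the other 9, at least 293-fold above a floor of 3 counts over the Hs294T controls. Row45932 held 13.1, 12.4 and 13.5 CPM in the WM9 resistant libraries and 0 elsewhere, at least 235-fold above such a floor. These made up 5 of the 6 features that edgeR did not call oppositely, and the other was row66716, which had 21 counts in the WM9 controls and 4 in the resistant WM9 libraries. A mean of at least 10 CPM in the higher group of each line, a condition added after the data were examined, was met by 40 features, 9 high in resistant WM9 and 31 in resistant Hs294T.

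Among the features high in resistant WM9, row36341 had the widest gap in the line where it was smaller. The WM9 controls held 5.26, 2.9 and 3.51 CPM and the resistant WM9 libraries 206, 130.1 and 128 CPM. The Hs294T controls held 3.43, 3.47 and 2.76 CPM, next to 0.186, 0 and 0.0526 CPM in the resistant Hs294T libraries. Both control groups thus lay at about the same level. The rule itself sets each resistant group apart from the controls of its own line. The mean CPM was 39.8 times higher in resistant than in control WM9. It was 40.6 times lower in resistant than in control Hs294T, on 5 counts in the resistant group. After TMM scaling the arms were less equal, with fitted log2 changes of 5.88 (SE 0.39) in WM9 and -5.12 (SE 0.57) in Hs294T.

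Row28711 combined a wide gap with a high level. It held 80.8, 66.6 and 70.2 CPM in WM9 controls and 1079.7, 898 and 1629 CPM in resistant WM9. In Hs294T it held 111, 148 and 142 CPM in controls and 0.928, 0.732 and 1.05 CPM in resistant libraries. The feature was among the better measured ones in resistant WM9 and close to absent from resistant Hs294T, with ratios of 16.6 and 148 between the states. The feature of this direction with the highest mean over all 12 libraries, row36649, held 262, 324 and 336 CPM in WM9 controls and 1224, 785 and 1337 CPM in resistant WM9. Its Hs294T controls held 305, 453 and 353 CPM and its resistant Hs294T libraries 12.4, 12.9 and 12 CPM. Here the upper arm was the shorter, 3.63-fold in WM9 against 29.8-fold in Hs294T.

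In row72478 the control groups did not share a level. The WM9 controls held 2.92, 2.55 and 2.56 CPM and the Hs294T controls 41.8, 16 and 36 CPM, while the resistant libraries held 27, 92.2 and 39.4 CPM in WM9 and 0.232, 0.314 and 0.631 CPM in Hs294T. The resistant WM9 libraries overlapped the Hs294T controls, while the WM9 controls lay well below and the resistant Hs294T libraries lower still. Row18402 held 8.13, 10.2 and 9.81 CPM in WM9 controls and 71.7, 97.4 and 392 CPM in resistant WM9, where library 3 was far above the others. In Hs294T it held 10.3, 7.39 and 9.98 CPM in controls and 0.649, 0.261 and 0.158 CPM in resistant libraries.

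The other features named in this direction had smaller gaps or lower levels. Row26207 held 71.7 ± 3.75 CPM in WM9 controls and 429 ± 132 in resistant WM9, and 86.4 ± 12.5 and 7.08 ± 1.75 CPM in the Hs294T groups (SD, n = 3 each). Row75810 held 9.75 ± 0.612 and 66.3 ± 9.14 CPM in WM9, and 10.4 ± 1.7 and 0.287 ± 0.0716 CPM in Hs294T (control, then resistant; SD, n = 3 each). Row71180, the fourth by mean over all 12 libraries, lay near the limit of the rule in both lines, with 78 ± 2.67 and 216 ± 38.5 CPM in WM9 and 91 ± 5.49 and 33.1 ± 1.76 CPM in Hs294T (SD, n = 3 each). It did not meet the rule under every scaling. Row46955, row53981 and row15706 held 129, 21.5 and 48.7 CPM in resistant WM9 (means, n = 3), 26.4, 8.55 and 5.43 times the WM9 control mean. In resistant Hs294T their means were 0.154, 0.12 and 0.716 CPM, below the Hs294T control mean by 15.3, 32.6 and 7.78 times. Row35633 and row31613 had Hs294T controls above the WM9 controls and are taken up with the control groups.

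Over the 34 features of this direction with more than 3 counts in both WM9 groups, the ratio of resistant to control WM9 ranged from 2.496 to 142.9, with a median of 7.40. In Hs294T, 29 features allowed such a ratio, and control exceeded resistant by 2.75 to 148 times, with a median of 15.3 (14.8 over 34 features when those with 0 to 3 counts were set at their bound or ratio). These ratios of CPM depend on the scaling. After TMM scaling, the fitted log2 change had a median of 3.44 in WM9 and -3.81 in Hs294T over the 36. Neither arm was the longer throughout: the absolute fitted log2 change was larger in WM9 in 19 of the 36 and in Hs294T in 17. In 5 features the Hs294T level lay at 10 CPM or more in controls and under 1 CPM in resistant cells, and in 8 the WM9 level lay under 1 CPM in controls and at 10 CPM or more in resistant cells. No feature did both.

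The features high in resistant Hs294T included row48063, with the highest mean over the 12 libraries of all 116. The Hs294T controls held 26.5, 14.8 and 5.19 CPM and the resistant Hs294T libraries 8647, 6094 and 6445 CPM. In WM9 it held 22.8, 21 and 24.1 CPM in controls and 2.23, 0.31 and 3.24 CPM in resistant libraries. The control groups overlapped, with Hs294T control 3 the lowest and control 1 the highest of the 6 controls, and the resistant means stood 455 times above control in Hs294T and 11.7 times below it in WM9. Row71214 followed with 3.04, 5.11 and 3.83 CPM in Hs294T controls and 2318, 2355 and 2205 CPM in resistant Hs294T, a ratio of 574. Its WM9 controls held 4.75, 6.15 and 5.47 CPM and its resistant WM9 libraries 0.515, 0.133 and 0.045 CPM, or 13 counts in all. Both features held 26.5 CPM or less in all 6 controls, still less in resistant WM9, and 2205 CPM or more in every resistant Hs294T library.

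Row57984 had the widest gap of the direction in the line where it was smaller, at a low level. It held 6.58, 3.25 and 3.57 CPM in WM9 controls and 0.172, 0.0443 and 0.0901 CPM in resistant WM9. In Hs294T it held 0.719, 0.0912 and 0.242 CPM in controls and 15.5, 14.4 and 17 CPM in resistant libraries. Row67078 held 12.4, 9.75 and 8.38 CPM in WM9 controls and 0.286, 0.266 and 0.495 CPM in resistant WM9. Its Hs294T controls held 3.15, 6.29 and 6.88 CPM and its resistant Hs294T libraries 115, 97 and 86.2 CPM. The ratios of the states were 29.2 in WM9 and 18.3 in Hs294T. Row24711 held 34.3, 20.1 and 19.6 CPM in WM9 controls and 0.114, 0.31 and 0.225 CPM in resistant WM9. In Hs294T it held 16.1, 11 and 18.2 CPM in controls and 199.99, 224 and 203 CPM in resistant libraries, so that the resistant groups stood 965 times apart.

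**Figure D3:**
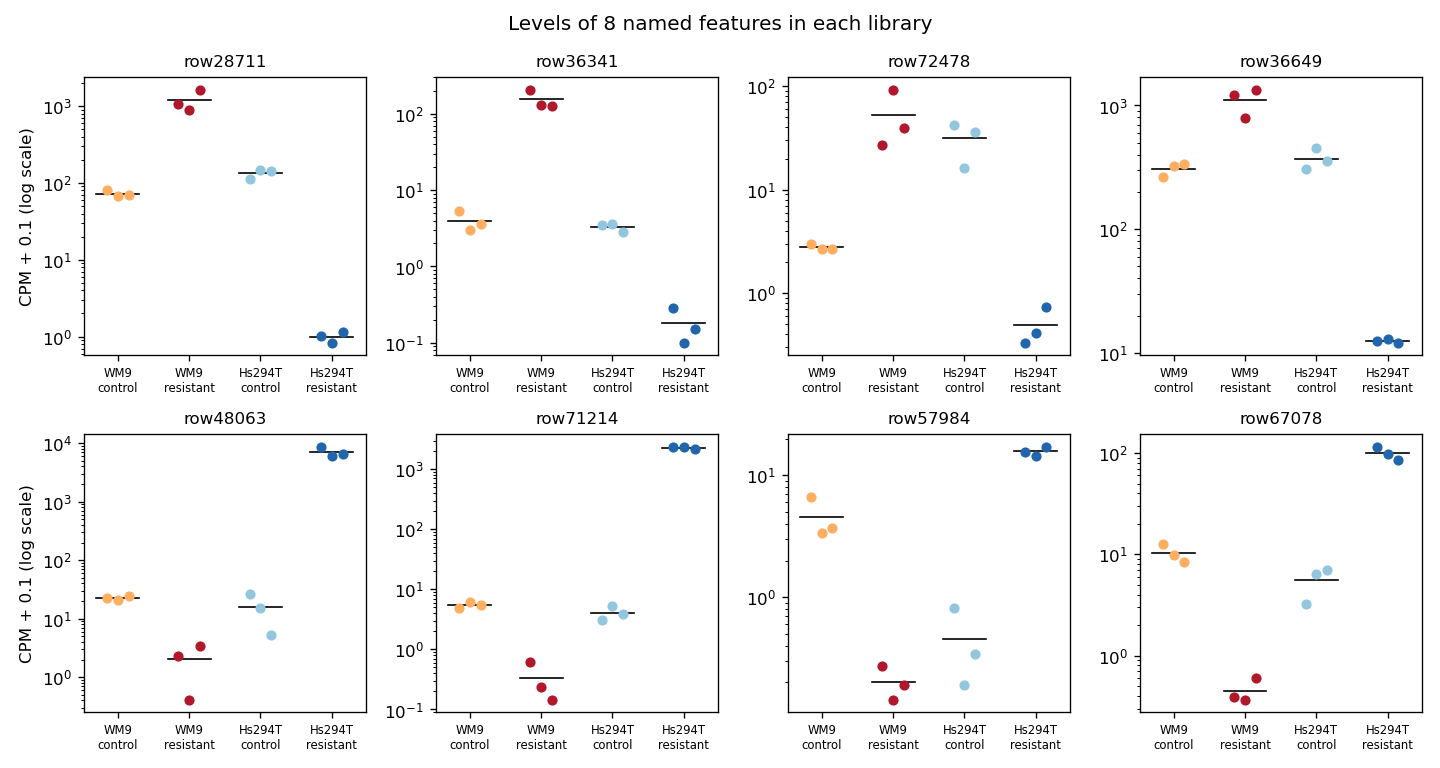
CPM with 0.1 added (log scale) of 8 named features in each library, with points for libraries and lines for group means, n = 3 per group. The upper panels show features high in resistant WM9 and low in resistant Hs294T, the lower panels features of the reverse kind. The control means lie within 2-fold except in row72478 and row57984. The control libraries of row28711 and row67078 do not overlap either.

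The other features named in this direction repeated this order at lower or less separate levels. Row551 held 17.1 ± 4.35 and 0.305 ± 0.182 CPM in WM9, and 1.9 ± 0.393 and 28.5 ± 2.4 CPM in Hs294T (control, then resistant; SD, n = 3 each). Row61811 held 11.3 ± 0.551 and 0.94 ± 0.313 CPM in WM9, and 8.46 ± 0.79 and 76.9 ± 4.86 CPM in Hs294T (SD, n = 3 each). Its control means lay within 2-fold, and its resistant WM9 libraries varied most for their level. Row72102 held 174 ± 48.3 and 22.5 ± 13.5 CPM in WM9, and 140.1 ± 59.1 and 684 ± 81.6 CPM in Hs294T (SD, n = 3 each), with a wide spread in both control groups. Row31809 held 67.5 ± 8.2 and 21.5 ± 2.19 CPM in WM9, and 33.6 ± 8.43 and 991 ± 133 CPM in Hs294T (SD, n = 3 each). Its Hs294T arm was 29.5-fold and its WM9 arm 3.13-fold, and it did not meet the rule under every scaling.

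Row73254, row67680, row35836 and row1142 held 122, 65.1, 32.7 and 16.5 CPM in resistant Hs294T (means, n = 3). These were 64.3, 90.3, 13.9 and 13.6 times the Hs294T control means. Row67680 rested on 1 count in all 3 resistant WM9 libraries against 148 in the WM9 controls, a ratio of 169.7 (95% counting interval 30 to 6746). In WM9 the other 3 were lower in resistant cells by 16.2, 54.7 and 37.7 times, on 21, 5 and 6 counts in the resistant libraries.

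Over the 77 features with more than 3 counts in both Hs294T groups, the ratio of resistant to control Hs294T ranged from 2.56 to 574, with a median of 7.92 (8.46 over all 80 when those with 0 to 3 control counts were set at their bound or ratio). In WM9, 66 features allowed such a ratio, and control exceeded resistant by 3.01 to 442 times, with a median of 8.82 (10.3 over 77 features with bounds). These were ratios of CPM. After TMM scaling, the fitted log2 change had a median of -2.83 in WM9 and 3.13 in Hs294T over the 80. Its absolute value was larger in WM9 in 37 of the 80 and in Hs294T in 43. In 12 features the WM9 level lay at 10 CPM or more in controls and under 1 CPM in resistant cells. Chosen after the values were seen, row69429 and row4485 were the highest of these. Row69429 held 93.6, 91.1 and 96.7 CPM in WM9 controls and 0.0572, 0.355 and 0.225 CPM in resistant WM9, against 105, 182 and 201 CPM in control and 581, 526 and 523 CPM in resistant Hs294T. Row4485 held 231, 243 and 243 CPM in WM9 controls and 1.26, 0.798 and 0.405 CPM in resistant WM9, against 68.1, 83.1 and 84.6 CPM in control and 448, 520.1 and 508 CPM in resistant Hs294T. Both were plainly expressed in 3 of the 4 groups and nearly lost in resistant WM9. In 15 features the Hs294T level lay under 1 CPM in controls and at 10 CPM or more in resistant cells, and no feature did both.

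The features took up a small part of each library. Together the 80 held 1.87%, 1.57% and 1.59% of the counts in the resistant Hs294T libraries, and between 0.0956% and 0.108% in the Hs294T controls. Row48063 made up much of this: without it the resistant Hs294T shares were 0.943% to 1.01%. In WM9 they held 0.167% to 0.172% in controls and 0.0166% to 0.0224% in resistant libraries. The 36 held 0.391% to 0.494% in resistant WM9 and 0.0662% to 0.0722% in WM9 controls. In Hs294T they held 0.0841% to 0.107% in controls and 0.00747% to 0.00859% in resistant libraries. The highest group mean of the 116 features had a median of 40.3 CPM, against 54.9 CPM over the 10718 rows.

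The control groups were compared with each other, since the rule sets each resistant group against its own control and not the controls against each other. In 71 of the 116 features the control means lay within 2-fold. The other 45 (38.8%) were counted as at least 2-fold apart, against 6.2% of the 10718 rows. The 45 include row45725, row45932 and row39523, which had no counts in either control group and thus no ratio. Such rows were counted alike in the 6.2%. Ratios of low control levels also rested on few counts. With 0.5 CPM added to the control means, the median absolute log2 ratio was 0.57 over the 116 and 0.31 over the 10718 rows. The control libraries did not overlap in 63 features (54.3%), against 30.2% of those rows. The edgeR test called 32 of the 116 between Hs294T control and WM9 control (adjusted p below 0.05), against 3.86% of the 18615 rows tested. Of the 36 features high in resistant WM9, 9 were called higher and 1 lower in Hs294T control, and of the 80 high in resistant Hs294T, 2 were called higher and 20 lower, next to 2.1% higher and 1.77% lower of all rows. In 29 of the 32 the higher control was that of the line with low resistant levels. A high control favours a low resistant-to-control ratio and a low control a high one, so the rule itself leans towards such features and the excess is no independent evidence. The count of 32 was 21 without Hs294T control 3, 19 without WM9 control 2, 21 without WM9 control 3 and 17 when the near-identical pairs were summed. Calls over all rows fell as well, to 1.76%, 1.38%, 1.55% and 1.11% in the same order.

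**Figure D4:**
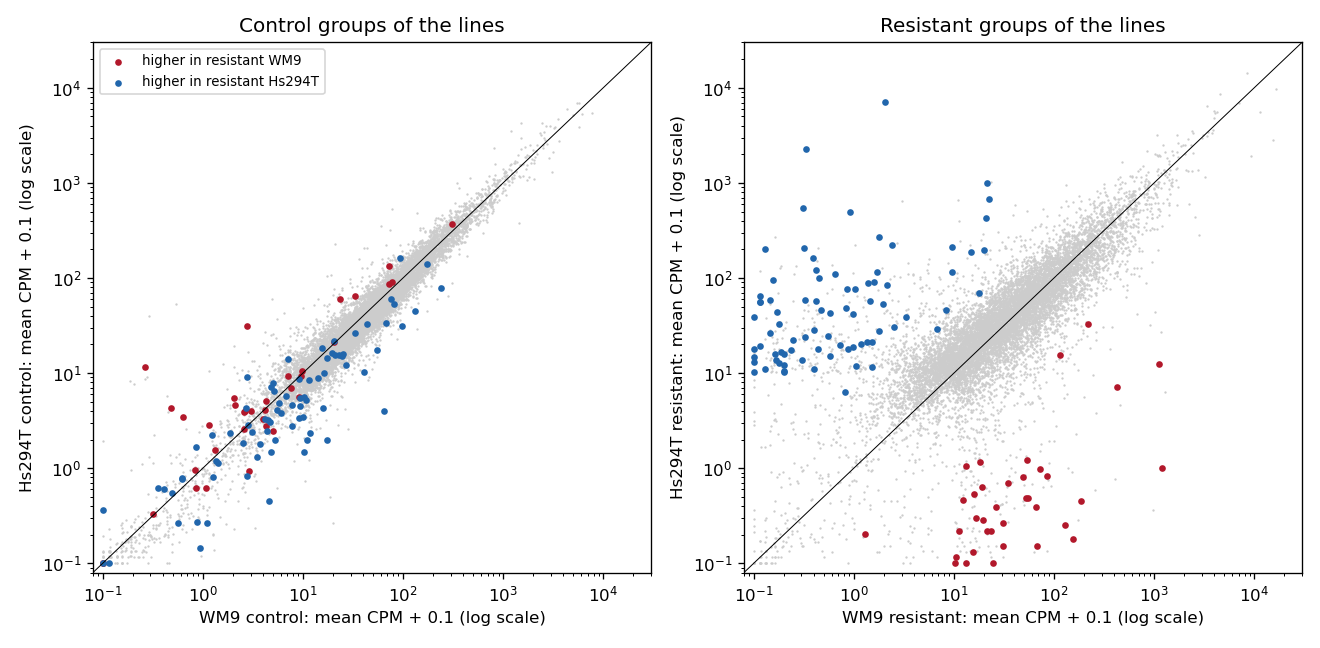
Mean CPM with 0.1 added of each row in WM9 (x axis) and Hs294T (y axis), both log scales, for the control groups (left) and the resistant groups (right). Coloured points are the 36 features high in resistant WM9 and the 80 high in resistant Hs294T, with the other rows of at least 10 CPM in grey. Among the controls, 45 of the 116 (38.8%) are counted as at least 2-fold apart, such as the feature at 0.164 and 11.4 CPM. The 45 include features with no counts in either control group, which have no ratio. The share is 6.2% of the 10718 rows, counted alike. Among the resistant groups the features of each direction fall on opposite sides of the diagonal.

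Some features were unequal among the controls. The control levels are among the values that the rule used, so the p-values given for single features describe chosen values and are no independent evidence. Row75161 held 0.114, 0.2 and 0.178 CPM in WM9 controls and 9.35, 17.1 and 7.61 CPM in Hs294T controls (log2 difference 6.32, SE 0.57, edgeR adjusted p = 2.66e-05). In resistant cells it held 0.629, 1.55 and 1.44 CPM in WM9 and 0.0464, 0.105 and 0.158 CPM in Hs294T, so the order of the lines was reversed while WM9 stayed low throughout. Row72478, whose levels are given above, differed between the controls in the same direction (log2 difference 3.69, SE 0.38, edgeR adjusted p = 0.000113). Row35633 held 0.515, 0.4 and 0.238 CPM in WM9 controls and 1.99, 2.69 and 7.75 CPM in Hs294T controls (log2 difference 3.65, SE 0.52, edgeR adjusted p = 0.00132). Its resistant libraries held 21.3, 36.7 and 20.2 CPM in WM9 and 0.232, 0.261 and 0.368 CPM in Hs294T. Row31613 had the same order, with 2.92, 1.15 and 1.72 CPM in WM9 controls and 4.54, 3.69 and 7.75 CPM in Hs294T controls (log2 difference 1.71, SE 0.37, edgeR adjusted p = 0.0163). It held 11.7, 23.3 and 11.9 CPM in resistant WM9 and 0.51, 0.261 and 0.526 CPM in resistant Hs294T.

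In the reverse direction, row39072 held 47.9, 69.3 and 76.4 CPM in WM9 controls and 3.38, 5.61 and 2.76 CPM in Hs294T controls (log2 difference -3.80, SE 0.39, edgeR adjusted p = 9.27e-05). Its resistant libraries held 7.44, 6.69 and 5.9 CPM in WM9 and 36.3, 23.6 and 26.2 CPM in Hs294T. The line that was high among the controls was thus low among the resistant groups, and the resistant means stood only 4.3 times apart. Row57984 and row551 also had lower Hs294T controls (log2 difference -3.51, SE 0.45, edgeR adjusted p = 0.000567 and log2 difference -2.96, SE 0.38, edgeR adjusted p = 0.000565). By contrast, row36341, row71214 and row18402 had adjusted p of 0.99, 0.829 and 0.908 between the controls in the edgeR test, with log2 differences of -0.02 (SE 0.35), -0.20 (SE 0.40) and 0.16 (SE 0.52). When each resistant group was set against all 6 controls, a comparison added after the data were examined, 63 of the 116 features met the rule, 19 high in resistant WM9 and 44 in resistant Hs294T.

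Between the resistant groups, all 116 features were called by the edgeR test, against 42.5% of the rows tested. The rule used both resistant groups, so nothing is read from this count. The fitted log2 difference, Hs294T minus WM9, had a median of -6.94 over the 36 and 6.41 over the 80, next to a median of 0.01 over all rows tested. The least separate features were at -2.97 and 1.75. Between the controls the medians were 0.44 and -0.38, next to -0.01 over all rows.

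Replicates varied more in some groups than in others. For features with at least 10 CPM in the group, the median coefficient of variation was 28.4% in resistant WM9 (35 of the 36 features) and 10.4% in resistant Hs294T (79 of the 80). Over all rows with at least 10 CPM these were 21.4% and 11.3%. The lower value in Hs294T includes the near-identical pair of libraries 2 and 3. Leaving out a library can only loosen the 2-fold conditions, so a feature can be lost only through the minimum of 10 CPM, and the omission of Hs294T control 1 let in the most others (148 features in all).

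Some members of the set were neighbours in the table. Whether they were so more or less often than other rows was not tested. Within 20 rows of each other lay 9 pairs of successive features, made of 17 features, of which 7 pairs shared their direction and 2 did not. What the order of rows stands for is not given in the sources used here, and features that overlap could share reads. The pairs described next were chosen after their values were seen. On adjacent rows, row52214 held 23.3, 16.6 and 18.7 CPM in WM9 controls and 90.5, 92.5 and 102 CPM in resistant Hs294T, and row52215 held 51.7, 39.9 and 38.1 CPM and 178, 203 and 220.3 CPM there. Their resistant WM9 groups held 3 and 2 counts, ratios of 403 (95% counting interval 138 to 1958) and 1342 (95% counting interval 371 to 11091) below control. The Hs294T controls held 26, 12.5 and 9.84 CPM of row52214 and 55.3, 25.5 and 18.5 CPM of row52215, highest in library 1 for both. The pair thus had the same pattern at different levels, and both features are uncertain as separate units. Row18280 and row18281, also adjacent, held 7.78, 25.8 and 12.5 CPM (row18280) and 49.8, 63 and 52.1 CPM (row18281) in resistant WM9, with 2 and 23 counts in resistant Hs294T. Row75524 and row75529, 5 rows apart, went in opposite directions. Row75524 held 38.1, 39.3 and 38.2 CPM in resistant Hs294T and 0 counts in resistant WM9, while row75529 held 27.3, 21 and 25.9 CPM in resistant WM9 and 0 counts in resistant Hs294T. The controls of both lay at 1.1 CPM or less in every library.

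At the limit of the rule the features ran on without a break. By the gap between the nearest libraries in the line where it was smaller, with a floor of 3 counts, row23408 and row71180 lay just inside at 2.05 and 2.15 times in the WM9-high direction. Row57492 and row54831 lay just outside at 1.99 and 1.94 times. Row54831 held 23.7, 20.3 and 18.1 CPM in control and 46, 47.9 and 50.3 CPM in resistant WM9. It held 284, 204 and 194 CPM in control and 7.24, 5.49 and 5.57 CPM in resistant Hs294T, so that only the pair of WM9 control 1 and resistant WM9 library 1 kept it out. Row71180, just inside, held 75, 79.7 and 79.4 CPM in control and 236, 172 and 241 CPM in resistant WM9. In the other direction row56892 and row18530 lay inside at 2.01 and 2.04 times, and row16945 and row64542 outside at 1.98 and 1.96 times. With the floor applied, 12 features inside the rule had a smaller gap under 2-fold, because their low levels rested on 3 counts or fewer in a library.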

How the data were processed

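RNA sequencing counts of 12 libraries from WM9 and Hs294T cells were used, in 4 groups of 3, with groups and columns taken from the labels. The authors deposited raw read counts, 1 column per library, without normalization. Per the labels' protocols, the library kit kept the strand of mRNA. The submitters' processing notes name, without roles, STAR 2.7.11b, Subread 2.0.8, featureCounts, fastp 0.24.0 and FastQC 0.12.1, and the build GRCh38. Which annotation and which strand setting were used is not given in the sources used here, and rows carry no gene names.

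CPM were computed from column sums, and the rule of the opening paragraph was applied to every row. All rows that passed filterByExpr (minimum count 10; 18615 of 78932) were fitted in 1 model of 4 groups with edgeR 4.0.16 (R 4.3.3; TMM, robust quasi-likelihood test, two-sided, Benjamini-Hochberg adjustment), with DESeq2 1.42.0 as an alternative. The fit was tested on simulated data. Library totals of 16817256 to 22561406 counts limit precision at low levels. A group at 0 was set against 3 counts over the group, and ratios on 1 to 3 counts carry exact 95% intervals that cover counting error only. The p-values measure only the spread between these libraries.

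Named features are, in each direction, the 10 with the largest smaller gap of the lines (lowest library of the higher group over the highest of the lower, floor of 3 counts) and the 4 with the highest mean CPM over all libraries, 26 in all, and those nearest the limit; others are said to be chosen after their values were seen. The members and lists were chosen with earlier results of these data known. Replicate numbers were not taken as pairs of samples, though some same-numbered libraries of the lines deviated together. Gene lists and cell type markers were not used here, since no row has a gene name.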

Additional observations from a re-analysis of the deposited data

Results flagged for a closer look

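Between the lines, 112 of the 116 features had unequal effects of resistance by edgeR's test of the difference of effects (adjusted p below 0.05), against 33.3% of the 18615 rows tested. The features were chosen for opposite changes, so this restates the choice and is no independent result. The 4 others are row45725, row45932, row17904 and row39523, which had 0 counts in all 6 libraries of 1 line. DESeq2 called 116, against 37.6% of all rows.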

How the results depend on the processing

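The number of features followed the rule's own limits: a fold of 1.5 gave 203 (75 high in resistant WM9 and 128 in resistant Hs294T), a fold of 3 gave 71 (22 and 49), and group means 2-fold apart, with overlap allowed, gave 284 (104 and 180). A minimum group mean of 20 CPM left 23 features high in resistant WM9, and TMM and DESeq2 scaling gave 58 and 57. After seeing the data, 3 alternatives were added: at least 10 CPM in the higher group of each line gave 40 (9 and 31), each resistant group against all 6 controls gave 63 (19 and 44), and more than 3 counts in the controls of the line with low resistant levels gave 111. Leaving out 1 library, which can only loosen the 2-fold conditions, gave 120 to 148 features (36 to 49 and 81 to 102), 108 to 111 of the 116 called oppositely in edgeR, 111 to 112 called for the difference of effects, and 116 called between the resistant groups; the choice of the features fixes these calls.

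The 32 calls between the control groups (3.86% of all rows) moved with the calls over all rows: 19 at an adjusted p below 0.01 (1.49% of all rows), 17 with near-identical pairs summed (1.11%), 40 in DESeq2 (6.9%) and 19 to 39 leaving out 1 library (1.38% to 7.13%). With the replicate number as a block, edgeR called 26 of these (2.72% of all rows), 109 opposite changes (4.2%), 112 differences of effects (30.3%) and 116 between the resistant groups (40.6%). Same-numbered control and resistant libraries deviated together with r of -0.25 to 0.309 in WM9 and -0.429 to 0.108 in Hs294T. Only 2 of 6 WM9 libraries and 0 of 6 Hs294T libraries were closest to their own number, and across the lines the same-numbered controls had r of 0.625, 0.351 and 0.06 and the same-numbered resistant libraries 0.531, 0.434 and -0.019 (numbers 1 to 3). As no set of 3 pairs was above 0.1 throughout, the numbers were not taken as pairs. Depth limits the lower arm most, where resistant groups held few counts.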
